A study of Mus musculus with 23 samples.

Results

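The genes described here encode the motors, kinases and chromosome-attachment proteins of cell division: 36 named members, all of which were found among the 24062 gene symbols of the count table. They were chosen by symbol, with earlier results of these data known. They comprise 7 kinases and cyclins, the 4 subunits of the chromosomal passenger complex, 6 kinesins, 6 kinetochore proteins and 4 spindle-binding proteins. The rest are 3 cytokinesis proteins, 2 chromosome proteins, 2 genes of protein turnover and mitotic entry, and 2 transcription factors. Polyadenylated RNA was sequenced from gastrocnemius, a hind limb muscle, and from a fat depot that the labels call IAT without spelling it out. The mice were 8 to 10 months old and of a mixed 129Sve/C57BL/6 background. WT mice carried no mutant allele according to the labels. HH mice carried a pair of hypomorphic (H) alleles of Bub1b, which encodes the checkpoint protein BubR1, and HL1002P mice carried an H allele with a second mutant allele. Such mice model mosaic variegated aneuploidy, a progeroid condition in people. There were 11 muscle libraries (4 WT, 4 HL1002P, 3 HH) and 12 fat libraries (4 of each genotype). Whole tissue was used, so fewer dividing cells and less mitotic RNA per cell cannot be told apart.

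Cells that divide switch these genes on late in the cycle. Cyclin A and cyclin B activate Cdk1, the kinase that starts mitosis; Plk1 and the Aurora kinases build and check the spindle; kinesins push and pull its microtubules; the NDC80 complex ties each chromosome to them. Transcription of the group is held down in resting cells and rises before mitosis through promoter elements bound by the MuvB complex, which pairs with B-Myb (Mybl2) and Foxm1, and by NF-Y. Mature muscle fibres and fat cells do not divide, whereas immune cells that live in or beside fat can, among them B cells of germinal centres.

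The promoters of 5 members are printed as textbook examples for this gene class, and each carries both elements that the class shares. Each run is the RefSeq window of GRCm38.p6 from 250 bases before to 50 bases after the annotated start, 5′ to 3′ on the strand of the gene. Capitals mark TTTGAA (the cell cycle homology region, CHR) and CCAAT (the NF-Y box), or their reverse complements TTCAAA and ATTGG.
Ccnb2: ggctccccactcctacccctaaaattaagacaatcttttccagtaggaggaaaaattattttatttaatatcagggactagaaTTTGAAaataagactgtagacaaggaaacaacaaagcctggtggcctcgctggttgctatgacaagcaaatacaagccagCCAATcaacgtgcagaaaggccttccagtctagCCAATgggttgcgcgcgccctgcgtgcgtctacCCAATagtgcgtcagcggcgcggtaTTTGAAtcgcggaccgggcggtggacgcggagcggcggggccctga
Cdk1: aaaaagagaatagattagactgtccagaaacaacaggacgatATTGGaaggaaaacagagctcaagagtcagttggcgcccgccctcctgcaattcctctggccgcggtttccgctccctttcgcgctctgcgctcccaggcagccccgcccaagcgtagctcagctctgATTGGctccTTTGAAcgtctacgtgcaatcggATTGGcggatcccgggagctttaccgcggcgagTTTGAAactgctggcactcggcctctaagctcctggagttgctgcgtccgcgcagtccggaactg
Aurka: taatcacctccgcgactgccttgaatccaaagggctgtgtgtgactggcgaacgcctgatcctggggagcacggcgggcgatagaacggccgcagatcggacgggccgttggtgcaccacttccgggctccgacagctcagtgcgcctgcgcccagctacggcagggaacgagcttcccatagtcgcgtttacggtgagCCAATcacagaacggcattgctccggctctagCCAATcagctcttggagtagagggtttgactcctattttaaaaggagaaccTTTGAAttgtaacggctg
Plk1: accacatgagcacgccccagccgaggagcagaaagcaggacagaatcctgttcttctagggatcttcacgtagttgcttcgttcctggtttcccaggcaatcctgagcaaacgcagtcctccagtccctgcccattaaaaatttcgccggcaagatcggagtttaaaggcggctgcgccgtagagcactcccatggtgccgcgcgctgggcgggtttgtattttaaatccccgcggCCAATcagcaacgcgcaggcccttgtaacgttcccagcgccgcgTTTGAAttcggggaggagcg
Kif23: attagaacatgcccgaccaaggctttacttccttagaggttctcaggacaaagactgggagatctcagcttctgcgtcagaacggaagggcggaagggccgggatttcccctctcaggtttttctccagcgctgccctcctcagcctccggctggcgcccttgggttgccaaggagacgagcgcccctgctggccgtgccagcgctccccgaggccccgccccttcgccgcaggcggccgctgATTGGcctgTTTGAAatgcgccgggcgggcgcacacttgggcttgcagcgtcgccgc
The windows lie at chr9:70421505-70421804 (minus strand) for Ccnb2, chr10:69352863-69353162 (minus strand) for Cdk1, chr2:172370521-172370820 (minus strand) for Aurka, chr7:122159185-122159484 (plus strand) for Plk1 and chr9:61946750-61947049 (minus strand) for Kif23. In Ccnb2 the CHR nearest the start began at position 5 and in Kif23 at position 3, counted from 1 at the start site. The CHR of Cdk1 nearest its start began at -15, with CCAAT boxes at -48 and -80. A window was found for 29 of the 36 members. On either strand, TTTGAA occurred in 22 of them (75.9%) against 18.1% of the 27025 windows of all genes. CCAAT occurred in 22 (75.9%) against 37.9%, and both occurred in 19 (65.5%) against 7.12%. The strings were searched separately, so overlapping occurrences counted for both. Nuf2, Nusap1, Mybl2 and Birc5 held neither string in this window.

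Library totals were 34.1 to 55.3 M counts in muscle and 22.6 to 58.8 M in fat. Levels are counts per M (CPM) on TMM-scaled library sizes, and a gene passed the test at a Benjamini-Hochberg adjusted p under 0.05 in edgeR's quasi-likelihood test over all genes tested. Counts of a member ran from 41 to 12297 in a fat library and from 0 to 839 in a muscle library. Replicates are separate samples per the labels, which name no animals, so the p-values measure the spread between these samples. Muscle libraries held 161020.0 to 229340.0 CPM of 10 muscle fibre genes, and fat libraries held 12242 to 43597 CPM of 10 fat cell genes. In fat, 3 libraries also held muscle fibre genes at over 5000 CPM: WT replicate 3 (16958), HL1002P replicate 4 (5995) and HH replicate 1 (15312). Bub1b, the mutated gene, read 0.952, 0.871, 0.726 and 0.767 CPM in WT muscle, 0.202, 0.181, 0.187 and 0.273 in HL1002P and 0.326, 0.338 and 0.520 in HH muscle, so every mutant muscle library lay below every WT one. It passed the test in HL1002P muscle (log2 fold change -1.96 ± 0.32 SE, adjusted p = 0.0498) but not in HH muscle (-1.07 ± 0.33, adjusted p = 0.15). In fat it read 7.08, 11.6, 9.91 and 10.9 in WT, 22.0, 22.1, 18.6 and 6.12 in HL1002P and 5.96, 11.4, 14.3 and 9.25 in HH, and passed in neither mutant.

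**Figure D1:**
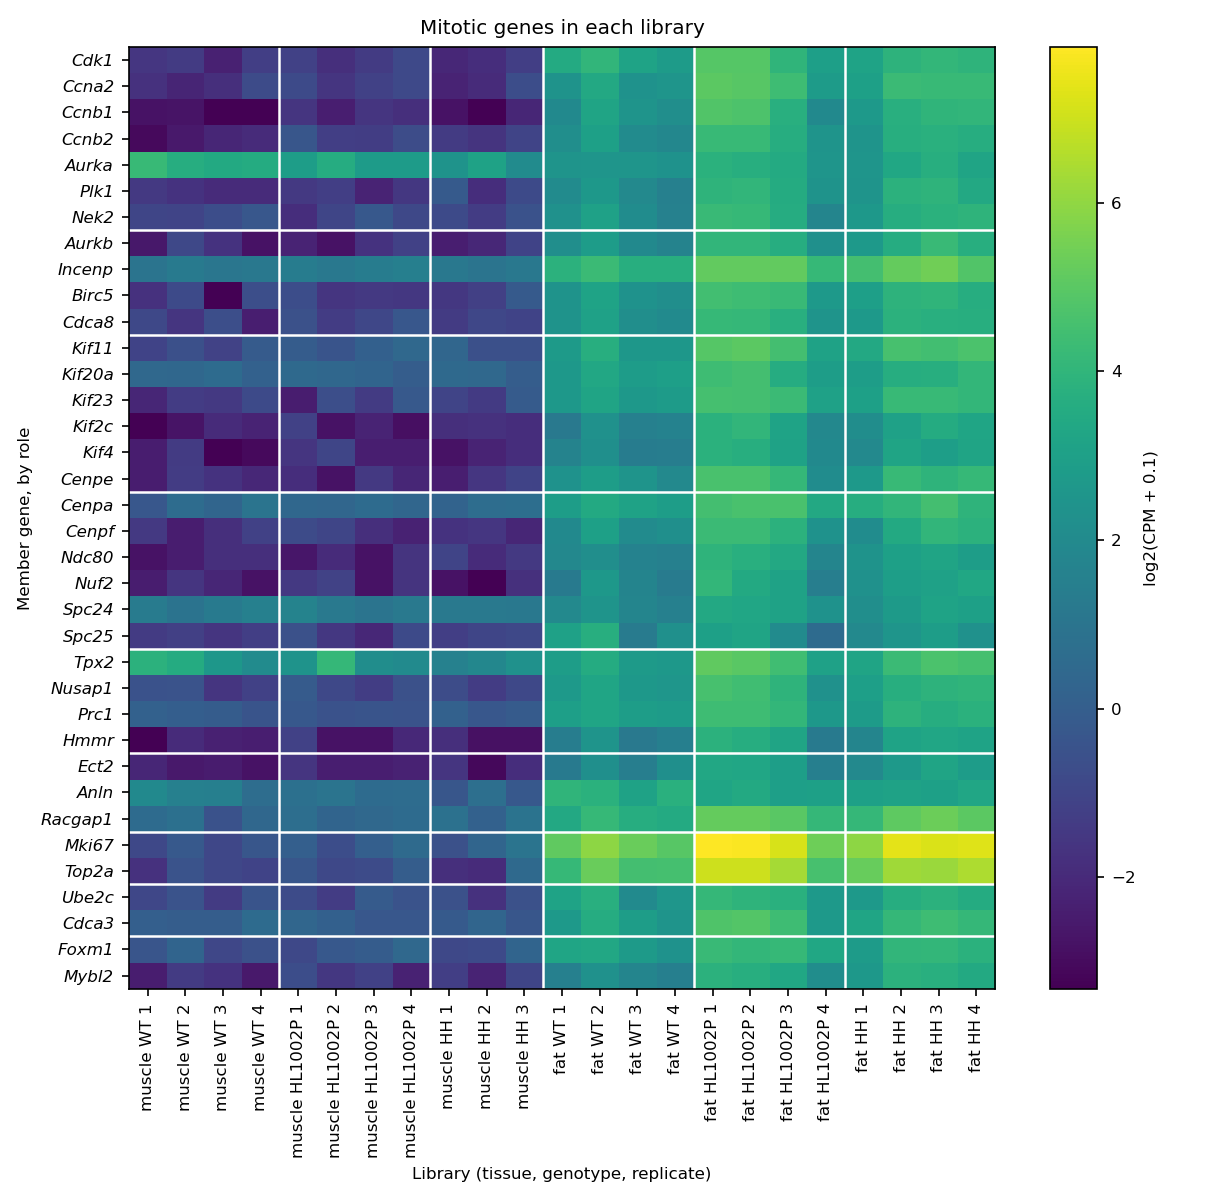
Level of the 36 members, as log2(CPM + 0.1), in all 23 libraries; rows are genes separated by role and columns are libraries separated by tissue and genotype. Each tissue is scaled on its own. Most members are near the floor in muscle and higher in fat, HL1002P replicate 4 and HH replicate 1 of fat look like WT fat, and Aurka and Tpx2 stand out in muscle.

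Fat of HL1002P mice carried more mitotic RNA than WT fat. Of the 36 members, 30 were higher and 0 lower past the test, with a median log2 fold change of 1.42, while 31.8% of the 16266 genes tested passed, 17.3% as higher, and the median of all genes was -0.07. The rise took in all 4 passenger complex genes, all 6 kinesins, all 4 spindle-binding genes, both chromosome genes, both transcription factors, 5 of 6 kinetochore genes and 5 of 7 kinases and cyclins. Cdk1, Nek2, Ect2, Ube2c, Spc25 and Anln did not pass. Fat of HH mice had 10 members higher and 0 lower, beside 20.8% of all genes tested and 12.3% called higher, with a member median of 1.13 and an all-gene median of -0.06. Those 10 were Plk1, Aurkb, Incenp, Kif11, Kif23, Cenpa, Racgap1, Mki67, Top2a and Mybl2, each also higher in HL1002P. At an unadjusted p under 0.05 the counts were 34 and 28 of 36, beside 46% and 39.5% of all genes. DESeq2 called 32 higher and 1 lower in HL1002P and 22 higher and 1 lower in HH, Anln being the lower one in both, and a fit of HH and WT fat alone called 17, all higher. For DESeq2 and that fit the share of all genes called is not given, so these counts cannot be read as particular to the members. The 2 mutants share the WT libraries, so their lists are not independent.

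Both counts turned on single libraries. The share of all genes called in these fits is not given beside them, so a fall or rise cannot be read as particular to the members. For HL1002P the count fell to 5 without HL1002P replicate 1, to 8 without HL1002P replicate 2 or WT replicate 1, to 16 without HL1002P replicate 3 or WT replicate 4 and to 19 without WT replicate 3, of which 1 (Anln) was lower. For HH it fell to 0 without HH replicate 3, 1 without HH replicate 2, 2 without WT replicate 1, 3 without WT replicate 4 and 5 without HH replicate 4, and rose to 23 without HH replicate 1. Cenpa, Incenp, Kif23, Mybl2 and Racgap1 passed in HL1002P fat in all 8 fits that left out 1 library, and no member did so in HH fat. Without the 3 fat libraries that held muscle fibre genes, a setting chosen after seeing the data, 33 members were higher in HL1002P and 31 in HH fat, and Anln was lower in both.

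The pattern by library was uneven. Summed over the 36 members, WT fat read 261, 417, 247 and 234 CPM in replicates 1 to 4, HL1002P fat 1055, 1025, 731 and 279, and HH fat 349, 727, 761 and 731. HL1002P replicate 4 was the lowest of its group for 35 members and within the WT range for 30. HH replicate 1 was the lowest of its group for 35 members and within the WT range for 29. Among WT libraries, replicate 2 was the highest for 34 members. Every mutant library lay above every WT library for 1 member in HL1002P (Aurka), where 15.1% of all genes did so, and for 5 members in HH (Incenp, Cenpa, Ndc80, Mki67 and Mybl2), where 15.0% did.

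**Figure D2:**
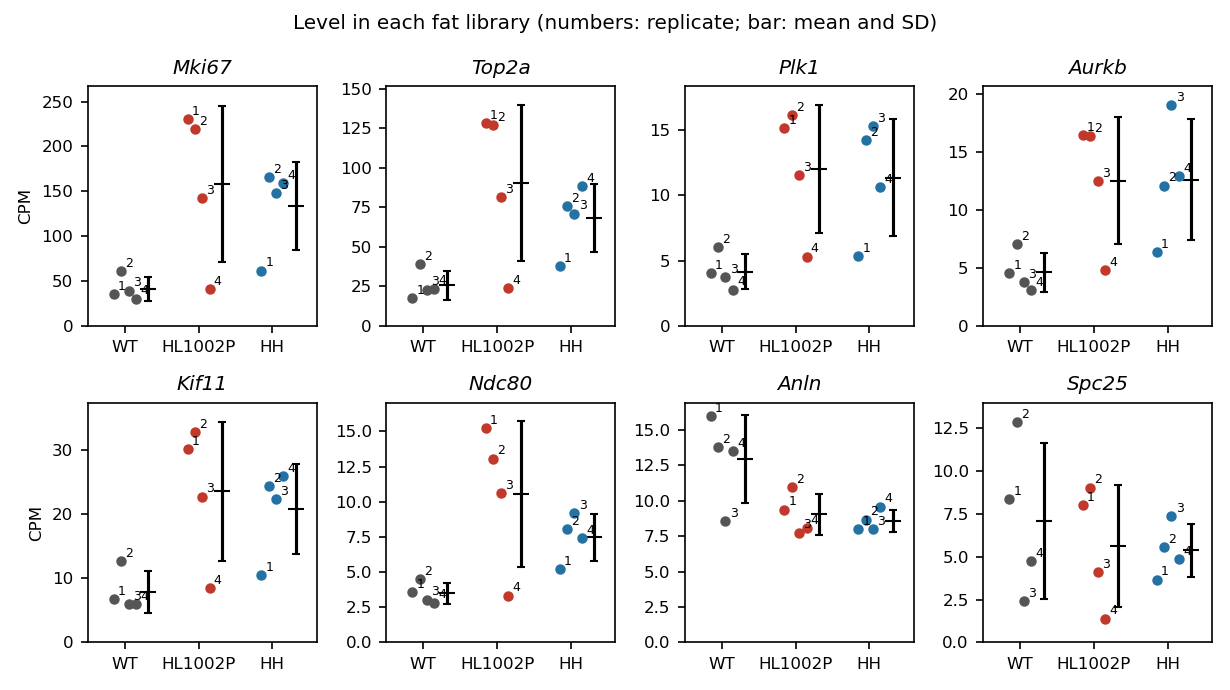
Level in CPM (vertical axis from 0) of 8 members in each fat library, by genotype; numbers give the replicate, and bars give mean and SD of 4 libraries. Replicate 4 of HL1002P and replicate 1 of HH lie near WT for the 6 members of the first 6 panels, and Anln and Spc25 show no rise.

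Mki67 encodes Ki-67, the surface coat of mitotic chromosomes and the standard marker of cycling cells, and Top2a encodes the topoisomerase that untangles sister chromatids. Mki67 read 35.1, 61.1, 39.5 and 30.4 CPM in WT fat, 230.3, 219, 142 and 41.3 in HL1002P fat and 61.6, 166, 148 and 159 in HH fat. Its log2 fold change was 1.93 ± 0.48 in HL1002P (edgeR adjusted p = 0.016), the largest of the 36, and 1.69 ± 0.48 in HH (adjusted p = 0.032). Every HH library was above every WT library (lowest HH 61.6, highest WT 61.1), and HL1002P replicate 4 was inside the WT range. Top2a read 17.7, 38.9, 23 and 23.6 CPM in WT, 128, 127, 81.5 and 23.8 in HL1002P and 37.9, 75.9, 71.1 and 88.3 in HH fat, with log2 fold changes of 1.81 ± 0.46 and 1.4 ± 0.46 (edgeR adjusted p = 0.017 and 0.0491). Per kilobase of exon, Mki67 had the highest level of the group in WT fat (4.12 CPM per kb), HL1002P fat (15.7) and HH fat (13.3), and the medians over members were 1.47, 3.40 and 2.81.

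Of the kinases and cyclins, Ccna2, Ccnb1, Ccnb2, Aurka and Plk1 rose in HL1002P fat, with log2 fold changes from 1.01 to 1.78, and only Plk1 of the 7 passed in HH fat. Cdk1, the kinase those cyclins activate, read 11.4, 16.2, 8.89 and 6.96 CPM in WT, 29.5, 29.9, 15.8 and 7.82 in HL1002P and 8.87, 15.0, 16.9 and 15.3 in HH fat. Its difference passed in neither mutant (0.93 ± 0.41, edgeR adjusted p = 0.094, and 0.37 ± 0.40, adjusted p = 0.51), and WT replicate 2 reached the HH levels. Ccnb1, its cyclin B1 partner, read 3.90, 9.14, 5.38 and 4.52 CPM in WT, 27.7, 26.7, 13.3 and 3.81 in HL1002P and 6.35, 13.0, 15.5 and 16.2 in HH fat. Reads of a Ccnb1 pseudogene could not be separated in these counts. Ccnb1 passed in HL1002P (1.64 ± 0.54, adjusted p = 0.039) and not in HH (1.16 ± 0.53, adjusted p = 0.13, edgeR). Plk1, the polo kinase of spindle assembly, read 4.03, 6.03, 3.76 and 2.78 CPM in WT, 15.1, 16.2, 11.6 and 5.30 in HL1002P and 5.32, 14.2, 15.3 and 10.6 in HH fat. It was higher in both mutants (1.54 ± 0.41 and 1.45 ± 0.41, edgeR adjusted p = 0.019 and 0.031). Nek2, a centrosome kinase, gave 1.36 ± 0.50 and 1.23 ± 0.50 and passed in neither, while DESeq2 called it in both (adjusted p = 0.02 and 0.046).

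The chromosomal passenger complex moves from centromeres to the spindle midzone and corrects faulty attachments. Its 4 genes were higher in HL1002P fat, by 1.06 to 1.53 on the log2 scale, and Aurkb and the scaffold Incenp were higher in HH fat. Aurkb, the kinase subunit, read 4.54, 7.02, 3.81 and 3.10 CPM in WT, 16.5, 16.4, 12.5 and 4.79 in HL1002P and 6.35, 12.1, 19.1 and 12.9 in HH fat, and its log2 fold change was 1.44 and 1.45 in the 2 mutants. Birc5 (survivin) read 5.29, 8.81, 5.02 and 4.50 CPM in WT, 22.0, 20.8, 18.9 and 6.22 in HL1002P and 7.83, 14.8, 15.7 and 12.4 in HH fat, higher in HL1002P (1.53 ± 0.38, edgeR adjusted p = 0.016), while HH missed the threshold (1.10 ± 0.38, adjusted p = 0.059). Incenp rose by 1.06 ± 0.26 and 1.13 ± 0.26, and 4 of 4 HH libraries were above all WT ones.

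The kinesins of the spindle all rose in HL1002P fat, with log2 fold changes from 1.0 (Kif20a) to 1.73 (Cenpe), and in HH fat Kif11 and Kif23 passed. Kif11, the motor that pushes spindle poles apart, read 6.71, 12.7, 5.95 and 5.91 CPM in WT, 30.1, 32.7, 22.7 and 8.50 in HL1002P and 10.5, 24.4, 22.3 and 25.9 in HH fat (1.59 ± 0.43 and 1.41 ± 0.43, edgeR adjusted p = 0.021 and 0.04). Kif20a, which carries the passenger complex to the midzone, read 6.17, 10.3, 7.04 and 7.90 CPM in WT, 20.5, 22.9, 12 and 7.38 in HL1002P and 7.40, 12.5, 12.7 and 16.7 in HH fat. It had the smallest kinesin difference, just past the threshold in HL1002P (1.0 ± 0.35, adjusted p = 0.0494) and not in HH (0.65 ± 0.35, adjusted p = 0.19, edgeR). Its exons overlap those of Cdc23 on the other strand over 1271 bases, and reads of the pair cannot be told apart in these counts. Kif23, the centralspindlin motor, rose by 1.39 ± 0.34 and 1.12 ± 0.34. The depolymerase Kif2c, the chromokinesin Kif4 and the kinetochore motor Cenpe gave 1.38, 1.21 and 1.42 in HH fat without passing, and DESeq2 called all 3 (adjusted p = 0.013, 0.02 and 0.017).

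The cargo-carrying kinesins served as a comparison list of the same protein family. Of 19 transport kinesin genes tested in fat, 1 was higher and 10 were lower in HL1002P, and 1 was higher and 3 were lower in HH, with medians of -0.41 and -0.43. Over all genes tested, 17.3% were higher and 14.5% lower in HL1002P, and 12.3% higher and 8.59% lower in HH. The higher one was Kif21b in both (1.69 ± 0.33 and 1.60 ± 0.33), a motor known from neurons and lymphocytes. The other 3 called in HH, Kif3a, Kif5b and Kif13b, were lower in both mutants. The names in this comparison were chosen after their values were seen.

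At the kinetochore, Cenpa, Cenpf, Ndc80, Nuf2 and Spc24 rose in HL1002P fat and Cenpa alone passed in HH fat. Cenpa, the histone variant that marks centromeres, gave 1.27 ± 0.28 and 0.97 ± 0.28. Cenpf, a large protein of the outer kinetochore, read 3.87, 7.95, 4.15 and 4.69 CPM in WT, 19.7, 19.6, 14.2 and 5.07 in HL1002P and 4.27, 10.9, 16.2 and 14.2 in HH fat, and passed in HL1002P (1.5 ± 0.48, edgeR adjusted p = 0.034) but not in HH (1.14 ± 0.47, adjusted p = 0.097). Ndc80 read 3.61, 4.49, 3.04 and 2.83 CPM in WT, 15.3, 13.1, 10.6 and 3.33 in HL1002P and 5.22, 8.05, 9.18 and 7.43 in HH fat. Every HH library was above every WT library, yet the adjusted p was 0.063 (1.10 ± 0.39, edgeR), while HL1002P passed (1.60 ± 0.39, adjusted p = 0.015).

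Of the 4 subunits of the NDC80 complex, Spc25 alone did not pass in HL1002P fat. It read 8.37, 12.9, 2.42 and 4.74 CPM in WT, 8.00, 9.04, 4.09 and 1.39 in HL1002P and 3.67, 5.56, 7.38 and 4.86 in HH fat, and its log2 fold changes were -0.33 ± 0.57 and -0.40 ± 0.58 (edgeR adjusted p = 0.67 and 0.62). WT libraries alone spanned 2.42 to 12.9 CPM, wider than the distance between groups. Its partners Ndc80, Nuf2 and Spc24 gave 1.60, 1.47 and 1.14 in HL1002P and 1.10, 1.13 and 0.87 in HH. With 1 library left out, Spc25 ran from -0.62 to 0.14 in HL1002P, and the difference between subunits was not tested.

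Spindle-binding proteins followed the kinesins in HL1002P fat, where all 4 rose, and none of the 4 passed in HH fat (2 at an unadjusted p under 0.05 in edgeR; DESeq2 called Tpx2). Tpx2, which activates Aurora A on the spindle, read 7.30, 11.7, 6.79 and 6.11 CPM in WT, 34.8, 31.7, 21.0 and 8.30 in HL1002P and 9.07, 19.5, 25.4 and 23.5 in HH fat. Its log2 fold change was 1.59 ± 0.44 in HL1002P (edgeR adjusted p = 0.022) and 1.28 ± 0.43 in HH (adjusted p = 0.055). Nusap1, the midzone bundler Prc1 and the hyaluronan receptor and spindle protein Hmmr rose by 1.24, 1.04 and 1.57 in HL1002P. Exons of Nusap1 and Prc1 overlap Oip5 and Rccd1 on the other strand.

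Among the cytokinesis genes, Racgap1 alone passed in edgeR. Anln, the actin-binding scaffold anillin of the cleavage furrow, read 16, 13.8, 8.55 and 13.5 CPM in WT, 9.37, 10.9, 7.74 and 8.09 in HL1002P and 8.02, 8.67, 7.97 and 9.58 in HH fat. Its log2 fold changes of -0.52 ± 0.20 and -0.60 ± 0.20 were below 0, like those of Spc25, and missed the threshold (edgeR adjusted p = 0.067 and 0.0549), and WT replicate 3 lay within the mutant range. DESeq2 called it lower in both mutants (-0.51 and -0.60, adjusted p = 0.039 and 0.020). Racgap1, the regulatory partner of Kif23 in centralspindlin, rose by 1.24 ± 0.29 and 1.25 ± 0.29, whereas Ect2, the exchange factor it recruits, gave 1.11 and 0.91 without passing (DESeq2 called it in HL1002P, adjusted p = 0.029).

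Among the remaining members, Ube2c, the ubiquitin-conjugating enzyme of the anaphase-promoting complex, read 8.72, 13.0, 3.98 and 5.76 CPM in WT, 17.3, 15.2, 13.6 and 6.56 in HL1002P and 6.43, 12.4, 14.2 and 11.6 in HH fat and passed in neither mutant (0.74 ± 0.40 and 0.50 ± 0.40, edgeR adjusted p = 0.16 and 0.36). Its exons overlap 592 bases of Tnnc2, the fast muscle troponin C gene, on the other strand, and reads of the pair cannot be told apart in these counts. Cdca3, a mitotic entry factor, passed in HL1002P (1.4 ± 0.43). Foxm1, which activates the mitotic genes, read 9.27, 10.4, 6.64 and 5.04 CPM in WT, 19.0, 16.6, 17.6 and 9.96 in HL1002P and 6.99, 16.3, 16.7 and 14.1 in HH fat, and passed in HL1002P (1.01 ± 0.32, edgeR adjusted p = 0.034) but not in HH (0.79 ± 0.32, adjusted p = 0.092). Mybl2 rose in both, by 1.58 ± 0.38 and 1.69 ± 0.39.

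**Figure D3:**
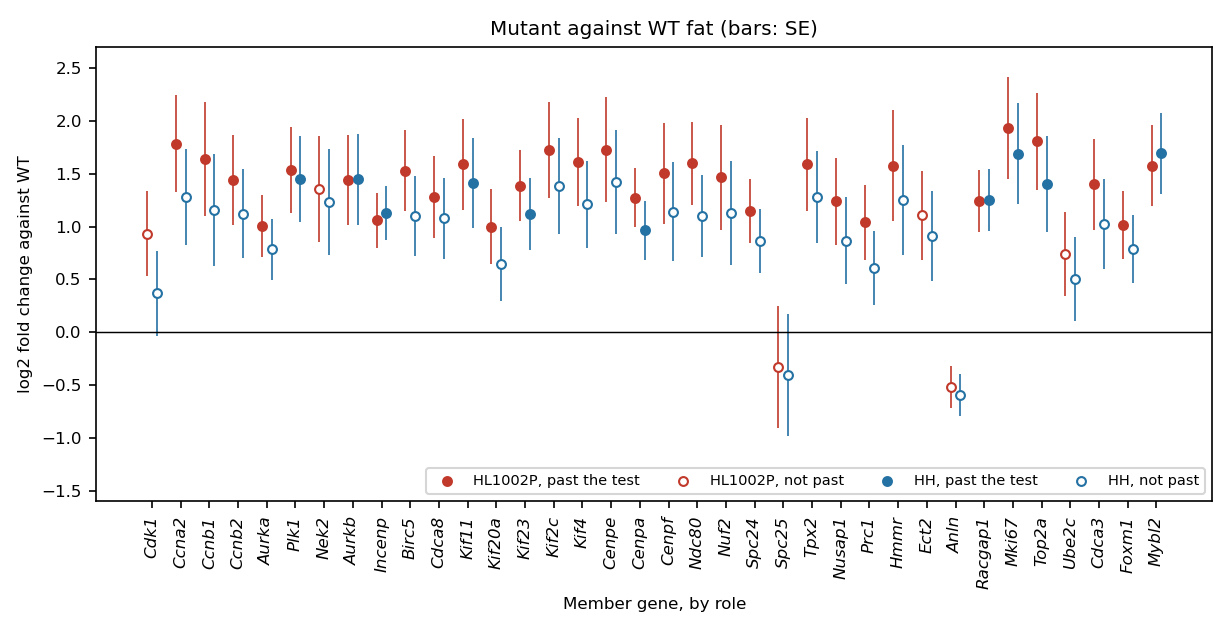
Log2 fold change against WT fat of each member (vertical axis) in HL1002P (red) and HH (blue), with SE bars; filled points passed the test. Filled points number 30 in HL1002P and 10 in HH, all above 0, and Spc25 and Anln lie below 0 in both.

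Set against each other, the 2 mutant fats could not be separated on these genes. In edgeR, 0 of 36 members passed between HL1002P and HH fat, 0 did so at an unadjusted p under 0.05, and DESeq2 called 0. The percentage of all genes called was 0. The median log2 difference (HL1002P minus HH) was 0.30, and 32 of the 36 were positive. For Mki67 the difference was 0.24 ± 0.47 and for Cdk1, the largest, 0.56 ± 0.40, so the SE leaves room for sizeable differences in either direction.

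The wider mitotic programme was described with a list of 83 other mitotic genes. In HL1002P fat 45 were higher and 1 was lower (Zwint, -0.67 ± 0.23), with a median of 1.16. In HH fat 20 were higher and 2 lower, with a median of 0.91. The smallest p-values in HL1002P belonged to Fbxo5, an inhibitor of the anaphase-promoting complex (1.32 ± 0.26), Cdc25b, a phosphatase that activates Cdk1 (1.22 ± 0.25), and Dlgap5, a spindle protein (1.99 ± 0.43). In HH they belonged to Pttg1 (-1.80 ± 0.22), Cdc25b (1.10 ± 0.25) and Fbxo5 (1.13 ± 0.26). Pttg1, the securin that guards sister chromatid cohesion, read 20.3, 26.5, 23.1 and 36.4 CPM in WT, 28.0, 26.0, 23 and 20.7 in HL1002P and 5.63, 8.99, 9.26 and 6.74 in HH fat. All 4 HH libraries lay below all WT and HL1002P libraries, whereas 75 of the 83 genes had a positive fold change, 20 of them past the test.

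Immune cell markers moved with the members in fat, and their part in the result was not tested. All 12 B cell and all 12 T cell markers were higher in HL1002P fat, and 11 of 12 and 10 of 12 were in HH fat. Summed over these 24 genes, WT fat read 119, 983, 819 and 638 CPM, HL1002P fat 5034, 5142, 4716 and 1976 and HH fat 2476, 3328, 4776 and 2495, so every mutant library was above every WT library. No B or T cell marker was at 0 in all libraries of a fat group. With the mean log2 level of these markers as a covariate in edgeR, 0 of 36 members passed in either mutant, 0 did so at an unadjusted p under 0.05, and 0 of all 16266 genes passed. The median log2 fold change of the members was then 0.52 in HL1002P and 0.37 in HH, and the median SE went from 0.415 to 0.722 and from 0.412 to 0.654. Marker level and genotype cannot be told apart in these 12 libraries.

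Lymphocyte level and mitotic level did not keep a fixed ratio across libraries. For every 100 CPM of lymphocyte markers, WT fat had 219.5, 42.4, 30.2 and 36.7 CPM of members, HL1002P fat had 21.0, 19.9, 15.5 and 14.1, and HH fat had 14.1, 21.9, 15.9 and 29.3. WT replicate 1 held the fewest lymphocyte markers and a member sum like that of WT replicates 3 and 4. HL1002P replicate 4 held 1976 CPM of lymphocyte markers, more than any WT library, and a member sum of 279 CPM, within the WT range.

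Markers of germinal centre B cells, which divide rapidly, varied between libraries of 1 genotype. The 11 genes used summed to 189.9, 206, 162 and 171 CPM in WT, 300.1, 328, 201 and 176 in HL1002P and 139, 223, 272 and 249.3 in HH fat. HL1002P replicate 4 and HH replicate 1, the 2 mutant libraries with WT-like member levels, had the lowest sums of their groups, and WT replicate 2, the WT library with the highest member sum, had the highest of the WT group. The lymphocyte sums had the same libraries at these ranks. The same 2 mutant libraries held over 5000 CPM of muscle fibre genes (5995 and 15312), as did WT replicate 3 (16958). What part germinal centre cells or muscle had in the member levels was not tested. The 11 genes are not particular to B cells, since they averaged 66.0 to 68.5 CPM over the muscle groups, where the 12 B cell markers averaged 1.27 to 1.56 CPM. In HL1002P fat 4 of the 11 genes were higher (Mef2b, Gcsam, Mybl1 and Neil1), and in HH fat 3 were (Gcsam, Mybl1 and Neil1). Plasma cell genes summed to 372, 476, 521 and 498, 3005, 1888, 1736 and 552 and 614, 1421, 1266 and 604 CPM in the same order, with 4 of 8 higher in each mutant.

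Markers of the main cells of fat had lower mean sums in both mutants than in WT. Libraries overlapped for fat cells and for fibroblasts and fat progenitors. Fat cell markers summed to 40799, 43597, 21231 and 22520.0 CPM in WT, 18382, 16173, 12242 and 22988 in HL1002P and 32236, 14270.0, 15329 and 24845 in HH fat, and of 10, 0 were higher and 5 lower in HL1002P and 1 higher and 0 lower in HH. Fibroblast and fat progenitor markers summed to 7879.9, 8054, 3649.7 and 7239.9 CPM in WT, 2501, 3058, 2590.4 and 3844 in HL1002P and 4491, 2989.8, 2083 and 3328 in HH fat, with 1 of 10 higher and 5 lower in HL1002P and 2 lower in HH. Endothelial markers averaged 1428 CPM in WT, 882 in HL1002P and 1020.0 in HH fat, with 8 and 5 of 10 lower. The part of these shifts in the members' result was not tested.

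Macrophage markers summed to 2076, 2306, 1847 and 1978 CPM in WT, 3693, 3153, 3156 and 1644 in HL1002P and 2876, 4300.0, 2974 and 2018 in HH fat, and of 15 markers 1 was higher and 1 lower in HL1002P and 0 higher and 1 lower in HH. With macrophage level as a covariate, 29 and 9 members passed. For this fit and the sex covariate below, the share of all genes called is not given. Their counts cannot be read as particular to the members. Of the 10 lymph node stroma genes in the table, 6 were higher in HL1002P and 5 in HH fat, and Ccl21a was at 0 in every library. Mammary epithelium genes were high in WT replicates 3 and 4 (2569 and 2361 CPM), HL1002P replicate 4 (1578), HH replicate 2 (1068) and HH replicate 4 (714), and at most 164 in the other fat libraries. Xist put WT replicates 3 and 4, HL1002P replicate 4 and HH replicate 4 of fat as female, and a sex covariate left 20 members higher in HL1002P and 8 in HH fat.

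**Figure D4:**
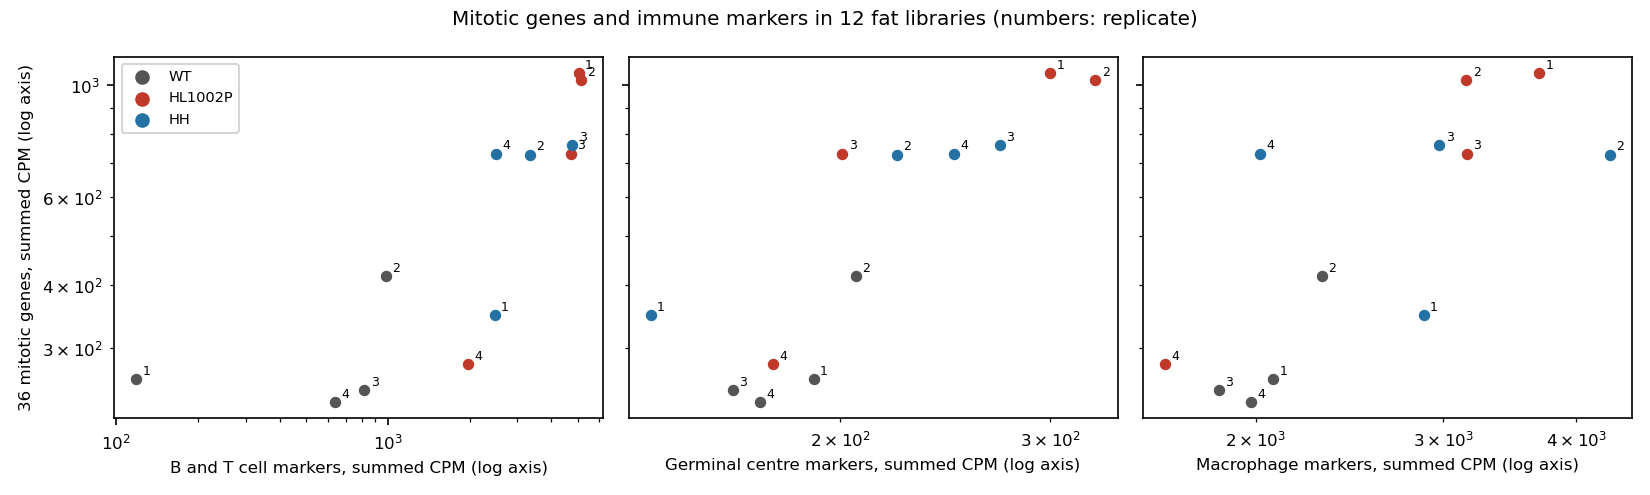
Summed CPM of the 36 members (vertical, log axis) against B and T cell, germinal centre and macrophage markers (horizontal, log axes) in the 12 fat libraries; numbers give the replicate. HL1002P replicate 4 lies at a member sum of 279 CPM with a germinal centre sum of 176 CPM, beside the WT libraries.

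Muscle carried little of this programme in any genotype. Of the 36 members, 22 were below 1 CPM in all 11 muscle libraries, and Aurka, Incenp, Spc24 and Tpx2 were at or above 1 CPM in every one. Ccnb1, Ect2, Hmmr, Kif2c and Ndc80 were too low to be tested. No member of the 31 tested passed in edgeR in HL1002P against WT, HH against WT or HL1002P against HH muscle, beside 0.117%, 0.377% and 0.0206% of all genes. At an unadjusted p under 0.05 there were 4, 6 and 0, beside 10.5%, 16.6% and 4.6% of all genes, and DESeq2 called 1, 2 and 0. Member medians were 0.24, 0.05 and 0.17. Mki67 read 0.443, 0.766, 0.415 and 0.698 CPM in WT, 0.950, 0.519, 0.957 and 1.36 in HL1002P and 0.582, 1.13 and 1.86 in HH muscle, and Top2a ranged from 0.159 to 1.32 CPM. Lymphocyte markers summed to between 6.39 and 15.5 CPM in muscle.

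Aurka, the Aurora A gene, and its activator Tpx2 had the highest mean levels of the members in every muscle group. Aurka read 18.6, 12.5, 10.8 and 11.8 CPM in WT, 7.29, 12, 6.94 and 6.89 in HL1002P and 5.21, 8.45 and 4.05 in HH muscle. All HH libraries lay below all WT libraries, where 6.56% of all genes did so, and of the HL1002P libraries replicate 2 was inside the WT range. The log2 fold changes, -0.70 ± 0.26 in HL1002P and -1.18 ± 0.29 in HH, did not pass (edgeR adjusted p = 0.4 and 0.083). Aurka and Anln did pass as lower in HH in DESeq2 (-1.19 and -1.44), with sex as a covariate (-1.29 and -1.51), and the count was also 2 without HH replicate 2. Anln read 3.83, 2.82, 2.7 and 1.51 CPM in WT, 1.64, 1.85, 1.4 and 1.45 in HL1002P and 0.698, 1.57 and 0.737 in HH muscle. Tpx2 read 14.4, 11.8, 5.89 and 4.14 CPM in WT, 5.27, 17.5, 4.41 and 4.0 in HL1002P and 2.86, 3.50 and 4.96 in HH muscle, high in WT replicates 1 and 2 and HL1002P replicate 2. Xist put these libraries as male. It also put HL1002P replicate 1 and HH replicates 1 and 2 as male, where Tpx2 was at 5.27, 2.86 and 3.50 CPM. The other muscle libraries were put as female. HH had the lowest median (3.50, against 8.83 in WT and 4.84 in HL1002P) but overlapped the lowest WT library, and its difference from WT did not pass (-1.26 ± 0.56, edgeR adjusted p = 0.28). Per kilobase of exon in WT muscle, Aurka was at 5.30 CPM per kb, Tpx2 at 1.94 and Spc24 at 0.913, beside a member median of 0.067.

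Ccnb2, the cyclin B2 gene, had the smallest p of the members in HL1002P muscle. It read 0.0221, 0.0697, 0.130 and 0.163 CPM in WT, 0.691, 0.316, 0.304 and 0.509 in HL1002P and 0.279, 0.219 and 0.390 in HH muscle, so that every mutant library was above every WT one. The same held for 2 of 36 members in each mutant, beside 3.09% of all genes tested in HL1002P and 7.38% in HH muscle. Besides Ccnb2 these were Ccnb1 in HL1002P and Kif2c in HH, both too low to be tested, so the shares do not cover them. The Ccnb2 difference in HL1002P was 2.23 ± 0.54 with an edgeR adjusted p of 0.23, passing in DESeq2 (2.26). It rested on 17 counts over the 4 WT libraries and 79 over the 4 HL1002P libraries. A Ccnb2 pseudogene could not be separated. It was named after its values were seen. Of the other mitotic genes in muscle, Bub1b was lower in HL1002P, and in HH Pttg1 was lower (-4.48 ± 0.20, edgeR adjusted p = 3.9e-07) and Psrc1 higher (3.44 ± 0.64, adjusted p = 0.045). Pttg1 read 29.1, 27.4, 32.5 and 40.7 CPM in WT, 33.9, 28.8, 27.7 and 30.5 in HL1002P and 1.19, 1.35 and 1.82 in HH muscle, so it was lower in HH in both tissues.

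In WT mice, fat stood far above muscle. Against WT muscle, 33 members were higher in WT fat and 2 lower, beside 73.5% of the 16863 genes tested, with a member median of 3.12 and an all-gene median of 0.30. RNA of the 2 tissues was extracted with different kits, so kit and tissue cannot be told apart. The highest ratios belonged to Ccnb1 (6.41 ± 0.82), Mki67 (4.89 ± 0.53) and Top2a (4.72 ± 0.61). Aurka (-2.57 ± 0.31) and Tpx2 (-1.44 ± 0.51) were lower in fat, also with RLE scaling and in DESeq2, and Spc24 (-0.54 ± 0.26) did not pass. Without WT muscle replicate 1, Tpx2 did not pass (-1.12, adjusted p = 0.066). These ratios depend on how the tissues are put on 1 scale: the per-library CPM given above were scaled within each tissue, whereas TMM factors over all 23 libraries were 0.594 to 0.707 in muscle and 1.26 to 1.71 in fat. With library totals as the scale, a setting chosen after seeing the data, the all-gene median was 1.47 and the member median 4.25, 34 members were higher and 1 lower, Aurka stayed lower (-1.39), Tpx2 did not pass (-0.30, adjusted p = 0.58) and Spc24 was higher (0.61, adjusted p = 0.034). On the scale of all 23 libraries, the order of group means for 29 of the 36 members was fat HL1002P, fat HH, fat WT, then the muscle groups, and Anln and Spc25 were highest in WT fat. Neighbouring groups in that order, HL1002P and HH fat or the 3 muscle groups, did not differ past the test for any member tested.

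**Figure D5:**
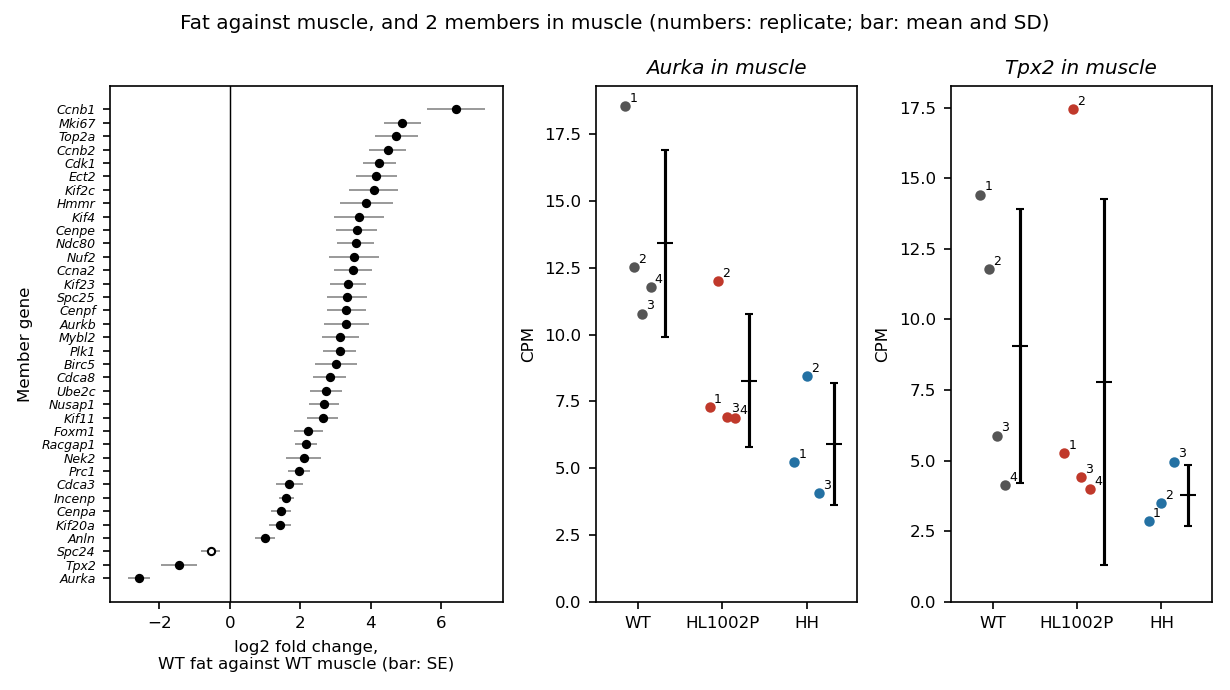
Left, log2 fold change of WT fat against WT muscle for each member with SE bars (filled points passed the test); right, CPM of Aurka and Tpx2 in each muscle library by genotype, with replicate numbers and mean and SD. Aurka and Tpx2 are the 2 members below 0 that passed on the TMM scale (Tpx2 did not with library totals as the scale), and all HH muscle libraries lie below all WT ones for Aurka.

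Whether a mutant changed a gene differently in the 2 tissues was tested as an interaction over all 23 libraries. The HL1002P effect was larger in fat for Aurka (1.72 ± 0.42, edgeR adjusted p = 0.021), Cenpa (1.35 ± 0.40, 0.037), Prc1 (1.44 ± 0.43, 0.039) and Spc24 (1.17 ± 0.37, 0.0467), 4 of 36 beside 11.3% of all genes. The HH effect was larger in fat for Aurka (1.98 ± 0.44, adjusted p = 0.023) and Incenp (1.16 ± 0.32, adjusted p = 0.0473), 2 of 36 beside 3.71%. Both counts lie near the shares over all genes, so they are not particular to the members. For Aurka the log2 fold changes had opposite signs in the 2 tissues: fat gave 1.01 and 0.78 and muscle -0.70 and -1.18 in HL1002P and HH. Within a tissue, only the change in HL1002P fat passed in edgeR. With library totals as the scale, 5 and 1 members passed, and Incenp in HH did not (adjusted p = 0.052). The median interaction over members was 1.08 in HL1002P and 0.93 in HH, beside all-gene medians of -0.09 and -0.08, and a member at a few counts in muscle carried a wide error (Ccnb1, -1.04 ± 1.05). The HL1002P count was 13 without HL1002P fat replicate 4, 0 without HL1002P fat replicate 1 or 2, and 1 or 2 without 1 of the 4 HL1002P muscle libraries, WT muscle replicate 1, 2 or 4, WT fat replicate 1 or 4, or HL1002P fat replicate 3. The HH count was 0 without HH muscle replicate 1 or 3, WT fat replicate 1 or HH fat replicate 3, and 1 without any 1 of the 4 WT muscle libraries, HH muscle replicate 2, WT fat replicate 4 or HH fat replicate 2.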

How the data were processed

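Raw counts per gene for 23 libraries were deposited by the authors as 1 table of 24062 symbols, and every column matched 1 sample. The submitters' processing notes name mm10, the aligners TopHat2 2.0.14 and Bowtie2 2.2.6, and featureCounts 1.4.6 for counting. The annotation and strand setting are not stated there, and the TruSeq kit of the labels' protocols marks no strand. The members and lists were chosen with earlier results of these data known.

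The tests used edgeR 4.0.16 under R 4.3.3 on the counts (TMM, filterByExpr by group, quasi-likelihood F tests, 1 coefficient per genotype), in 1 fit per tissue and, for differences between tissues, 1 fit of all 23 libraries treated as independent. The threshold was a Benjamini-Hochberg adjusted p of 0.05 over all genes tested. The procedure was tested on simulated data. The SE is the log2 fold change over the root of F. Depth limits precision most in muscle, where members had 0 to 839 counts, and read counts are not independent molecules.

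Values in every library are given for 15 members picked by function, together with Bub1b and the 3 other mitotic genes with the smallest p in each mutant fat; members outside that rule are given in full where a pattern turned on them and were chosen after their values were seen. Promoters came from RefSeq and exon overlaps from GENCODE, both on GRCm38. Alternatives were RLE scaling, other filters, DESeq2 1.42.0, a replicate block, lymphocyte, macrophage and sex covariates, the 2 groups alone, leaving out each library and, added after seeing the data, library totals as the scale between tissues and leaving out the fat libraries with muscle genes. In HL1002P and HH muscle, all 3 same-numbered pairs had a correlation of 0.216 to 0.290 over genes (genes are not independent replicates). For HL1002P replicates 1 to 3 the best match among the HH libraries was the same number, and the reverse was not examined. In HL1002P and HH fat these correlations were 0.034, 0.134, 0.528 and 0.410 for replicates 1 to 4, and the same number was the best match except for replicate 1. Same-numbered HL1002P and HH libraries of a tissue also shared the sex given by Xist. The part of sex in these correlations was not tested. No 2 libraries of a group agreed within sampling noise. A further germinal centre marker is not reported here.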

Additional observations from a re-analysis of the deposited data

Results flagged for a closer look

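Of 105 groups of 4 libraries examined for a library far from the others of its group (20 members and the summed members), 8 held one; chance gives about 1 in 20 groups, and members share their libraries. In fat, the members summed to 349 CPM in HH replicate 1 against 727 to 761 in the other HH libraries, and to 417 CPM in WT replicate 2 against 234 to 261 in the other WT libraries. Kif11 was at 12.7 CPM in WT replicate 2 against 5.91 to 6.71. In HL1002P replicate 4, Cenpa was at 10.7 CPM against 22.7 to 24.6, and Incenp at 18.02 against 35.2 to 35.7. In HL1002P muscle, Aurka was at 12.005 CPM and Tpx2 at 17.5 CPM in replicate 2 against 6.89 to 7.29 and 3.999 to 5.27 in the others, and Birc5 was at 0.518 CPM in replicate 1 against 0.226 to 0.257.

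The effect of a mutant differed between tissues, by an interaction test in edgeR, for 5 members: 4 of 36 in HL1002P beside 11.3% of all genes, and 2 of 36 in HH beside 3.71%. These counts lie near the shares over all genes and cannot be read as particular to the members. Both counts fell to 0 with single libraries left out. The difference in log2 fold change, fat minus muscle, was 1.72 for Aurka, 1.35 for Cenpa, 1.17 for Spc24 and 1.44 for Prc1 in HL1002P, and 1.98 for Aurka and 1.16 for Incenp in HH. Aurka had this difference in both mutants, which share the WT libraries.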

How the results depend on the processing

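Counts of members called ranged, with 1 library left out, from 5 to 33 for HL1002P and 0 to 23 for HH against WT fat, 0 to 2 for HH against WT muscle, 0 to 13 and 0 to 3 for the HL1002P and HH effect in fat against muscle. Of 81 counts under other settings, 65 stayed within 1.5 times, which includes counts of 0 that stayed at 0. With lymphocyte level as a covariate they were 0 in HL1002P and 0 in HH fat, where Cdk1 and Kif20a in HH went to -0.11 and -0.033 (log2). DESeq2 gave 23 in HH fat (33 in HL1002P fat), 1 and 2 in HL1002P and HH muscle and 9 for the HL1002P effect between tissues. Fitting only the 2 groups gave 17 in HH fat. Leaving out the fat libraries with muscle genes, chosen after seeing the data, gave 32 in HH fat and 13 and 5 for the effects between tissues. A sex covariate gave 2 in HH muscle. With the replicate number as a block, 23 members were called in HL1002P and 9 in HH fat, 1 in HH muscle and 2 for the HL1002P effect between tissues, and the block changed no other count by over 1.5 times, including HL1002P against HH muscle. Numbers there are shared labels, not known pairs. Without a filter on low counts, or with library totals as the scale, the HH effect between tissues had 1 member, and on that scale, chosen after seeing the data, Spc24 in WT fat against muscle was 0.61. Requiring 1 CPM on average in both tissues left 8 members to test between WT tissues, of which 7 passed. Tpx2 in HL1002P muscle went to 0.73 with a macrophage covariate, and from -0.99 to 0.10 with 1 library left out (the highest without WT replicate 1). For these shifts the cause was not tested. Apart from the lymphocyte covariate, the share of all genes called is not given beside these counts. A shift in them cannot be read as particular to the members. Low counts in muscle left 5 members untested there.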
